A study of Drosophila melanogaster with 8 samples.

Results

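The Yellow proteins are a family of secreted proteins named after the yellow gene of Drosophila, whose loss turns the black pigment of the fly's cuticle yellow-brown. The members described here are the 10 genes y, yellow-b, yellow-c, yellow-d, yellow-d2, yellow-e, yellow-e2, yellow-e3, yellow-f and yellow-f2. They were chosen by symbol, through their FlyBase gene IDs, from 14701 gene IDs in the authors' deposited table of a strain comparison. Each of the 10 IDs stood on 1 row of the table, shared its mean with no other row and had a p-value.

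RNA was sequenced from Dahomey and Oregon R, 2 strains of Drosophila melanogaster kept in laboratories, with 4 libraries for each strain and 60 flies in a library. The labels give no mutation, transgene or treatment for either strain. All flies were mated females aged 10 days and kept at 25 °C, and the RNA came from their heads and thoraxes together. The authors' deposited table gives 1 mean normalized count, 1 log2 fold change, its standard error (SE), 1 p-value and 1 adjusted p for each entry, and no values of single libraries were used here. Every error below is therefore the authors' SE or an interval made from it, the depth of each library is unknown, and the overlap of libraries between strains could not be examined. The labels do not say whether a strain's libraries came from separate cultures, so the p-values cover the spread between these samples alone, which may be technical. The headers leave the sign of the fold change unstated. It was taken as Dahomey over Oregon R, because the table's name puts Dahomey first; if the authors meant the opposite, every direction below reverses. In pooled heads and thoraxes, a change in transcript per cell and a change in the number of cells that make it cannot be told apart.

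In insects the Yellow family shares a fold with the major royal jelly proteins of the honeybee and is best known for its part in making and placing melanin, the dark pigment of the cuticle. Melanin is made from tyrosine by way of dopa and dopamine, which are oxidised outside the cell and built into the hardening cuticle. In Drosophila, y acts in the formation of black melanin. Its relatives yellow-f and yellow-f2 encode enzymes that convert dopachrome, an intermediate of melanin synthesis. The relatives yellow-g and yellow-g2 act in the eggshell. For the other members a role in the adult head or thorax is less well established, although yellow-e is known for larval colour in the silkworm.

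Of the 10 Yellow genes, yellow-d was higher in Dahomey, yellow-e was lower in Dahomey and the other 8 did not pass the threshold, an adjusted p under 0.05 in the authors' deposited table (DESeq2). The share of all entries with a p-value that passed was 29.4%, with 14.7% in each direction, so 2 of 10 is not above the background. The same 2 members had an unadjusted p under 0.05. Fold changes were positive for 5 members and negative for 5. The members' median log2 fold change was 0.02, against -0.01 over all entries with a p-value. Their median absolute log2 fold change was 0.17, and that of all entries was also 0.17. 

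**Figure D1:**
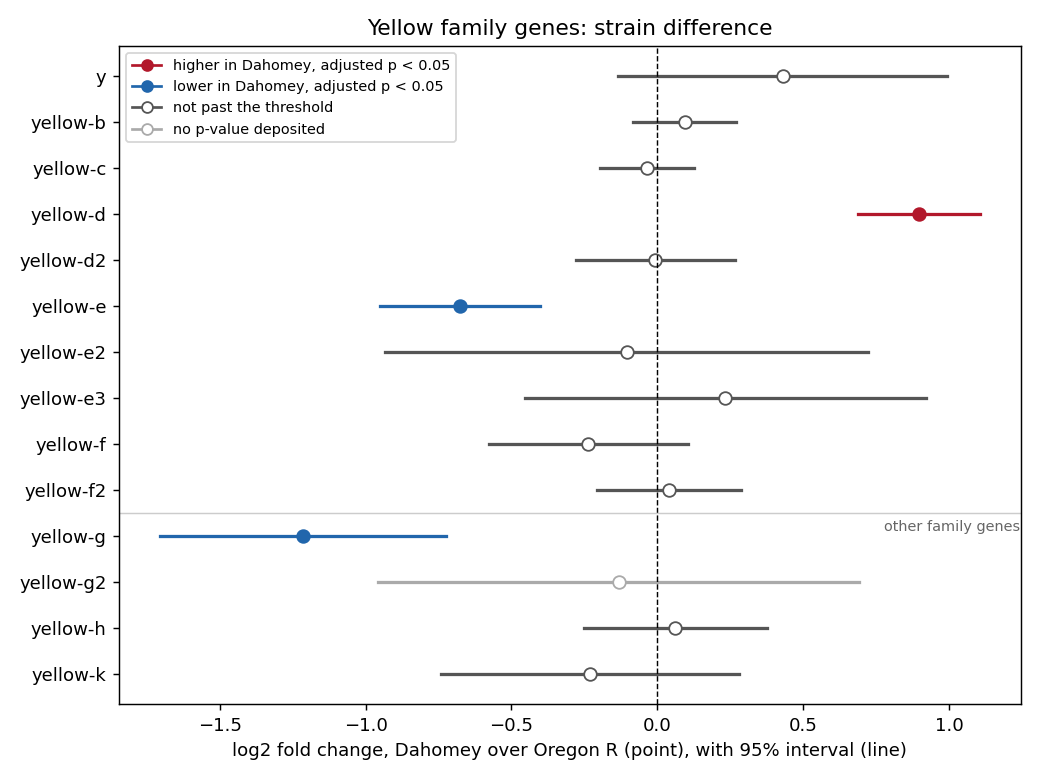
Log2 fold change of each Yellow family gene, Dahomey over Oregon R (x axis), with the 95% interval made from the authors' SE; filled points passed an adjusted p of 0.05 and open points did not or had no p-value. Among the 10 members above the grey line, yellow-d at 0.90 and yellow-e at -0.68 are the filled points, and the intervals of the other members cross 0.

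The gene yellow-d, on chromosome arm 2R (FBgn0041712), had the largest difference of the 10 members. The authors' deposited table gave it a mean of 21507 normalized counts and a log2 fold change of 0.90 ± 0.11 (SE; DESeq2 adjusted p = 1.30e-15). Its 95% interval ran from 0.69 to 1.10, and the point estimate is a 1.86-fold higher level in Dahomey. With strains weighted equally, that fold change and mean imply 27976 normalized counts in Dahomey and 15037 in Oregon R. The absolute fold change of yellow-d exceeded that of 93.7% of all entries with a p-value, and that of 79.3% of the entries that passed.

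The gene yellow-e, on arm 3R (FBgn0041711), differed the other way. The authors' deposited table gave it a mean of 4609 and a log2 fold change of -0.68 ± 0.14 (SE; DESeq2 adjusted p = 1.08e-05). Its 95% interval ran from -0.95 to -0.40, which is a 1.60-fold higher level in Oregon R at the point estimate. The implied means were 3548 normalized counts in Dahomey and 5671 in Oregon R. Its absolute fold change exceeded that of 70.6% of the entries that passed.

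The dopachrome-converting pair yellow-f and yellow-f2 gave no call. In the authors' deposited table yellow-f2 had a log2 fold change of 0.04 ± 0.13 (SE; DESeq2 adjusted p = 0.87), from a mean of 6132. Its 95% interval, from -0.21 to 0.29, holds no difference as large as that of yellow-d or yellow-e. For yellow-f the authors' deposited table had -0.24 ± 0.17 (SE; DESeq2 adjusted p = 0.357) from a mean of 860. The interval of yellow-f, from -0.58 to 0.11, reaches further down, so a moderately lower level in Dahomey was not detectable with this error.

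The pigment gene y, on the X chromosome (FBgn0004034), was a low transcript here. The authors' deposited table gave y a mean of 42.5 normalized counts and a log2 fold change of 0.43 ± 0.29 (SE; DESeq2 adjusted p = 0.295). Its 95% interval ran from -0.13 to 0.99. With this SE, a log2 fold change of at least 0.70 would have been needed to pass, so a difference of the size of yellow-e could have been missed in y.

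The genes yellow-b and yellow-c, both on arm 2L, had a small SE and a small fold change. In the authors' deposited table yellow-b had a log2 fold change of 0.09 ± 0.090 (SE) from a mean of 2606, and yellow-c had -0.04 ± 0.083 (SE) from a mean of 8224. Their 95% intervals ran from -0.08 to 0.27 and from -0.20 to 0.13. For yellow-d2, the neighbour of yellow-d, the authors' deposited table gave -0.01 ± 0.14 (SE) from a mean of 424, with an interval from -0.28 to 0.27. Differences as large as that of yellow-d lie outside the intervals of all 3 genes. For yellow-c this reading is limited by exon bases that it shares with the gene CIAPIN1, described below.

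The genes yellow-e2 and yellow-e3 were close to the lower limit of the measurement. The authors' deposited table gave yellow-e2 a mean of 4.76 and yellow-e3 a mean of 2.06 normalized counts. Their log2 fold changes were -0.10 ± 0.42 and 0.23 ± 0.35 (SE) in the authors' deposited table. Only log2 fold changes of at least 1.03 for yellow-e2 and 0.86 for yellow-e3 would have passed with these SE. Of all entries with a mean under 10, 3.05% passed, so the 2 genes say little about the strains.

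**Figure D2:**
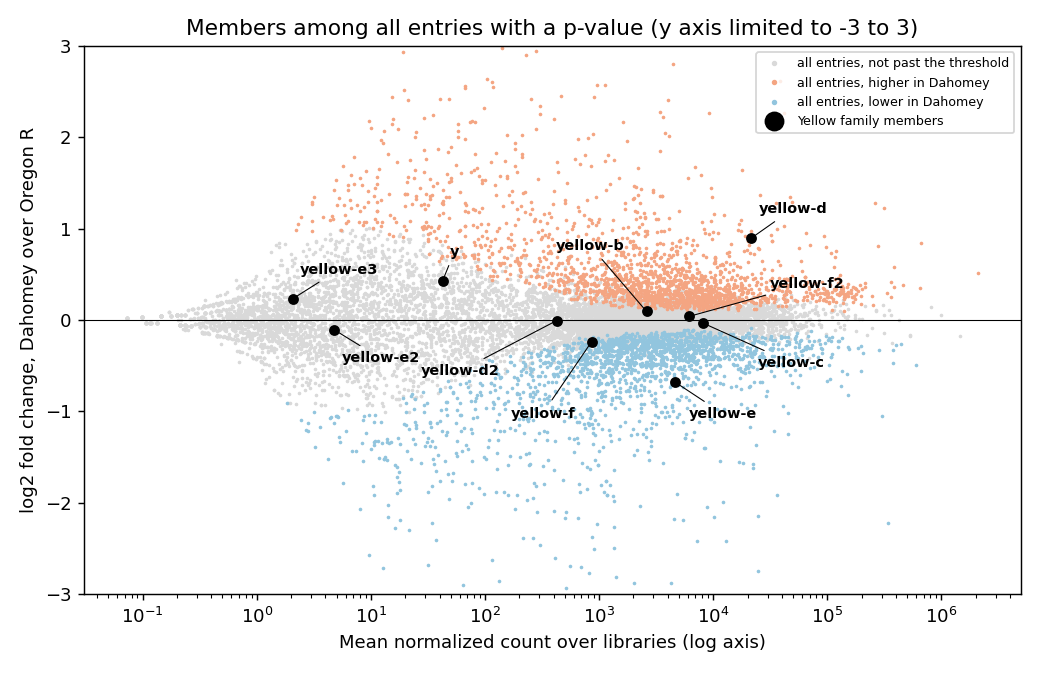
Log2 fold change, Dahomey over Oregon R (y axis, limited to -3 to 3, which leaves out 49 entries), against the mean normalized count (log x axis) for all entries with a p-value; black points are the 10 Yellow family members. The cloud of entries that passed opens at higher means, and yellow-d and yellow-e lie in it while the 3 members with a mean under 100 lie in the grey area.

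Entries with higher means passed more often, and the members' means ranged widely. Of entries with a mean from 10 to 100, where y lies, 23.4% passed, and the median SE was 0.34. Of entries with a mean of at least 100, 36.8% passed. The 7 members in that range included both that passed. From a mean of 1000 to 10000 the median SE of all entries was 0.082. In that range yellow-c and yellow-b had an SE near this median, and those of yellow-f2 and yellow-e in the authors' deposited table, 0.13 and 0.14, were above it.

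Levels were compared between members per length, as mean normalized counts per kilobase of exon, with exon lengths of 1319 to 2038 bases from the BDGP6 annotation. The highest level was that of yellow-d, at 12283 per kilobase, above 95.1% of all genes with a mean above 0. It was followed by yellow-c at 5140, yellow-f2 at 4194, yellow-e at 2500 and yellow-b at 1417 per kilobase. These 5 members lay above the median of all genes, 685 per kilobase. The other 5 lay below it: yellow-f had 598, yellow-d2 had 316, y had 20.9, yellow-e2 had 3.03 and yellow-e3 had 1.56 per kilobase. From the highest to the lowest, the level per kilobase fell 7865-fold. No spread over libraries is at hand for these levels, so neighbours in this order, such as yellow-c and yellow-f2, cannot be said to differ.

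Of the summed level per kilobase of the 10 members, yellow-d made up 46.4%, yellow-c 19.4%, yellow-f2 15.8% and yellow-e 9.44%. The gene y made up 0.0788%. Because yellow-d was both the highest member and the one with the largest fold change, the implied sum differed between strains, with 29587 per kilobase in Dahomey and 23358 in Oregon R, a sum 26.7% higher in Dahomey. The difference of yellow-d alone was 7389 per kilobase toward Dahomey, that of yellow-e was -1151, and the other 8 members together gave -9.91. The implied share of yellow-d in the sum was 54.0% in Dahomey and 36.8% in Oregon R. These sums are descriptions of the deposited means and fold changes, with no test.

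**Figure D3:**
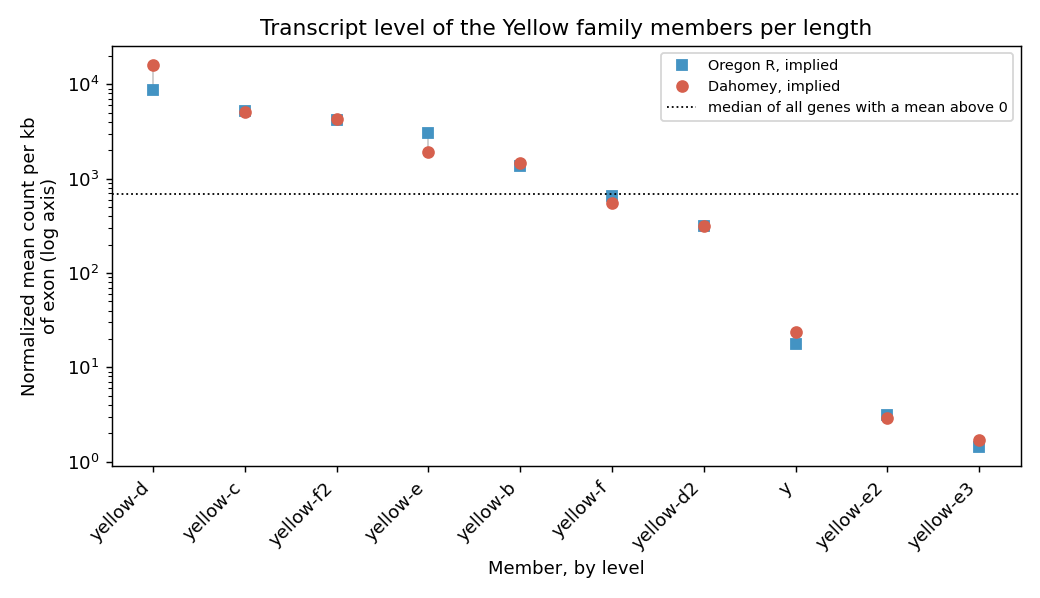
Mean normalized count per kilobase of exon (log y axis) of the 10 members in order of level (x axis); squares and circles are the levels that the deposited mean and fold change imply for Oregon R and Dahomey, and the dotted line is the median of all genes with a mean above 0, at 685. The strains stand apart for yellow-d and yellow-e among the higher members, and the 3 lowest members are y, yellow-e2 and yellow-e3.

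The value of yellow-c carries a limit from its position. In the BDGP6 annotation, exons of yellow-c and of the neighbouring gene CIAPIN1, on the opposite strand, share 1197 bases, which is 74.8% of the exon bases of yellow-c and 50.8% of those of CIAPIN1. CIAPIN1 encodes a factor of cytosolic iron-sulfur protein assembly. The authors' deposited table gave CIAPIN1 a mean of 8799 and a log2 fold change of 0.00 ± 0.071 (SE), close to the 8224 and -0.04 of yellow-c. The library kit named in the labels does not mark strand, so reads from the shared bases cannot be assigned to yellow-c or CIAPIN1. The fold change of yellow-c, its SE and its place as the second-highest member are therefore uncertain. Without yellow-c, yellow-d made up 57.6% of the remaining sum.

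Among the other members such overlaps were small or absent. Exons of yellow-f shared 95 bases with CG31342, and those of yellow-b shared 100 bases with the sodium channel gene ppk17, each on the opposite strand. The overlap was 6.60% of the exon bases of yellow-f and 5.44% of those of yellow-b. The genes yellow-d and yellow-e, which differed between strains, shared no exon base with another annotated gene.

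Among genes with a row in the authors' deposited table, 7 of the 10 members stand next to another member in the genome, in 3 clusters. The genes y, yellow-b and yellow-c stand alone. The clusters are yellow-d with yellow-d2 on arm 2R, yellow-e with yellow-e2 and yellow-e3 on arm 3R, and yellow-f with yellow-f2, also on arm 3R. All members of a cluster lie on the same strand. The annotated proteins of the 10 members have similar lengths, from 409 residues for yellow-e3 to 541 for y, and their genes have few exons, with 2 in y and yellow-d2 and 4 in yellow-f and yellow-f2.

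Members of a cluster differed in level and, for yellow-d and yellow-d2, in the strain difference. The level per kilobase of yellow-d was 38.9 times that of yellow-d2, and their 95% intervals of the log2 fold change, 0.69 to 1.10 and -0.28 to 0.27, did not overlap. In the yellow-e cluster the level of yellow-e was 826 times that of yellow-e2 and 1601 times that of yellow-e3. The intervals of yellow-e2, from -0.93 to 0.72, and of yellow-e3, from -0.46 to 0.92, overlap that of yellow-e, so a like difference in them was not detectable. The level of yellow-f2 was 7.02 times that of yellow-f, and their intervals overlapped.

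Neighbours were the genes with the nearest start on each side of a member, among annotated genes with a row in the authors' deposited table. Of 12 such genes that are no members, 2 were higher in Dahomey, 3 were lower and 7 did not pass, beside the 29.4% of all entries that passed. By gene start, the cluster of yellow-d and yellow-d2 stands between CG13551 and CG30414. The span of CG13551 overlaps those of yellow-d and yellow-d2 on the opposite strand, with no shared exon base. In the authors' deposited table CG13551 had 0.16 ± 0.086 (SE; DESeq2 adjusted p = 0.178), and CG30414 had -0.53 ± 0.15 (SE; DESeq2 adjusted p = 0.00183). Neither neighbour was higher in Dahomey at the threshold. The yellow-e cluster lies between Dpm3, a gene of dolichol-phosphate-mannose synthesis, and the ionotropic receptor gene Ir87a. In the authors' deposited table Dpm3 was lower in Dahomey, at -0.40 ± 0.094 (SE; DESeq2 adjusted p = 0.000168), and Ir87a had 0.00 ± 0.38 from a mean of 15.7. Beside yellow-f2, CG7488 had 0.23 ± 0.070 in the authors' deposited table and was higher in Dahomey, and CG14383, beside yellow-f by gene start, did not pass. CG31342, which shares exon bases with yellow-f, is not among the 12. It had 0.01 ± 0.073 (SE; DESeq2 adjusted p = 0.955) in the authors' deposited table.

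**Figure D4:**
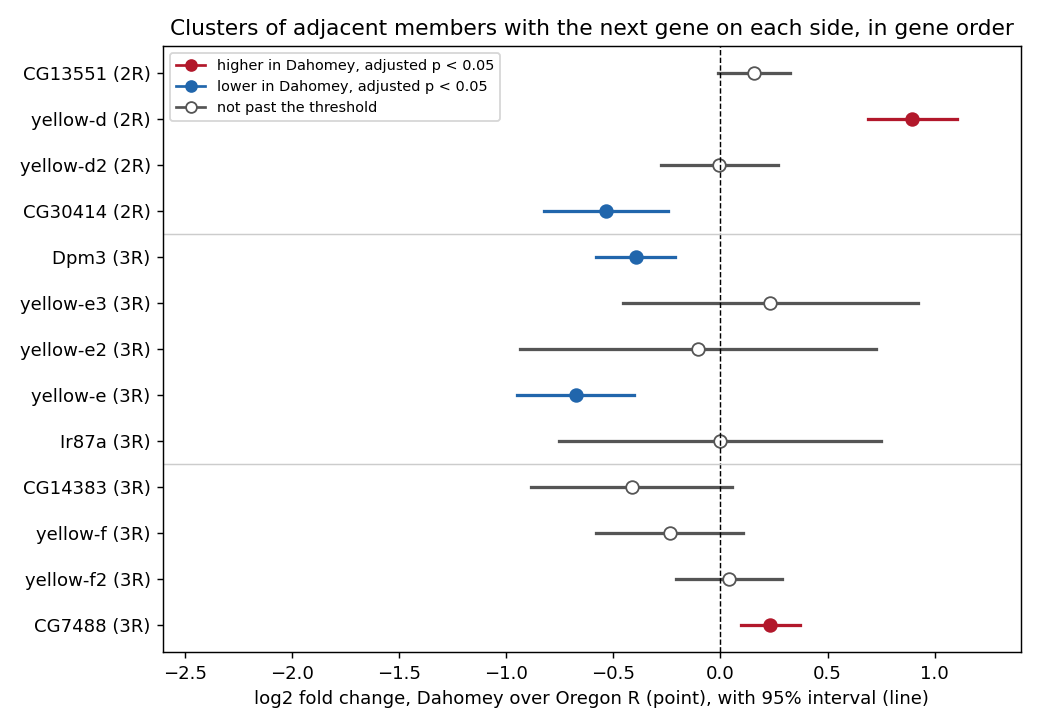
Log2 fold change, Dahomey over Oregon R (x axis), with its 95% interval. Shown are the 3 clusters of adjacent members and the next gene with deposited values on each side, in order of gene start, with the chromosome arm in brackets. In the top cluster yellow-d stands at 0.90 between CG13551 and yellow-d2, whose intervals cross 0, and in the middle cluster yellow-e and Dpm3 are both lower in Dahomey.

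The solitary members had neighbours of both kinds. The gene y lies beside CG32816, whose span overlaps that of y on the opposite strand with no shared exon base. In the authors' deposited table CG32816 was higher in Dahomey, at 0.40 ± 0.11 (SE; DESeq2 adjusted p = 0.00207), close to the 0.43 of y, which did not pass. On the other side of y, ac, a proneural gene of bristle formation, had a mean of 0.198 in the authors' deposited table. For CG31832, beside yellow-c and lower in Dahomey, the authors' deposited table gave -0.78 ± 0.20. Beside yellow-b, BuGZ, which acts at the mitotic spindle, and ppk17 did not pass.

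Of the other Yellow genes of the fly, yellow-g, yellow-g2, yellow-h and yellow-k, only yellow-g passed. The authors' deposited table gave yellow-g, an eggshell gene on arm 3L, a log2 fold change of -1.21 ± 0.25 (SE; DESeq2 adjusted p = 1.12e-05), from a mean of 326. Its neighbour in the family, yellow-g2, had -0.13 ± 0.42 and no p-value. The gene yellow-h, on chromosome 4, had 0.06 ± 0.16 from a mean of 1222, and yellow-k had -0.23 ± 0.26 from a mean of 44.6 in the authors' deposited table; neither passed. As for yellow-c, shared bases limit these values: an annotated antisense RNA on the opposite strand covers 84.4% of the exon bases of yellow-k, and another covers 12.1% of those of yellow-h.

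Eggshell transcripts were present in this material of heads and thoraxes. All 9 eggshell genes of the marker list that were matched in the authors' deposited table had reads, with means from 47.3 to 6166, and none of them had a p-value. Their log2 fold changes were negative for 6 genes and positive for 3, from -2.28 for the chorion gene Cp18 to 0.54 for the vitelline membrane gene Vm32E in the authors' deposited table. CG32302, which overlaps yellow-g by 23 exon bases on the opposite strand, had -4.07 ± 0.40 and no p-value in the authors' deposited table. These fold changes without a p-value were not tested, and whether a single library drives them could not be examined. The part of ovarian RNA in the value of yellow-g was not tested.

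Genes of melanin synthesis and cuticle tanning passed in both directions. Of 18 genes listed for melanin synthesis and cuticle tanning, 16 were matched and 15 had a p-value. Of these, 6 were higher in Dahomey, 5 were lower and 4 did not pass, against 14.7% of all entries in each direction. At an adjusted p under 0.01, 2 were higher and 4 were lower, beside 22.6% of all entries that passed in either direction. The median log2 fold change of the 15 was 0.12, and their median absolute log2 fold change was 0.23. All of the 16 matched genes had a mean of at least 135, and of all entries with a mean of at least 100, 36.8% passed in either direction.

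Of the 5 genes lower in Dahomey, 4 lie on the path from tyrosine to dopamine and its conjugate with beta-alanine. In the authors' deposited table ple, tyrosine hydroxylase, had -0.40 ± 0.084 (SE; DESeq2 adjusted p = 1.76e-05), and Ddc, which makes dopamine from dopa, had -0.42 ± 0.11. The gene b, which acts in beta-alanine synthesis, had -0.40 ± 0.10 there, and t, which splits the conjugate of dopamine and beta-alanine, had -0.29 ± 0.11 in the authors' deposited table. The prophenoloxidase gene PPO3 had -1.21 ± 0.21, from a mean of 135 in the authors' deposited table. The ebony gene, e, which joins beta-alanine to dopamine, had -1.45 ± 0.19 in the authors' deposited table and no p-value, so it is in neither count. The difference of e was therefore not tested, and whether a single library drives it could not be examined.

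Of the 6 genes higher in Dahomey, 3 act on the cofactor of tyrosine hydroxylase. In the authors' deposited table Pu, which starts the synthesis of the cofactor tetrahydrobiopterin, had 0.23 ± 0.079. Pcd and Dhpr, which regenerate that cofactor, had 0.12 ± 0.050 and 0.20 ± 0.079 in the authors' deposited table. Catsup, a negative regulator of tyrosine hydroxylase, had 0.32 ± 0.064, and svr, a carboxypeptidase gene, had 0.17 ± 0.066 in the authors' deposited table. For Mco1, a multicopper oxidase gene, the authors' deposited table gave 0.54 ± 0.11. Of the 6, only Catsup and Mco1 had an adjusted p under 0.01. The DESeq2 adjusted p was 0.017 for Pu, 0.044 for Pcd, 0.042 for Dhpr and 0.037 for svr. The 4 genes that did not pass were Hn, phenylalanine hydroxylase, at 0.03 ± 0.12, the prophenoloxidase genes PPO1 at 0.20 ± 0.12 and PPO2 at -0.12 ± 0.12, and amd at 0.22 ± 0.16 in the authors' deposited table.

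**Figure D5:**
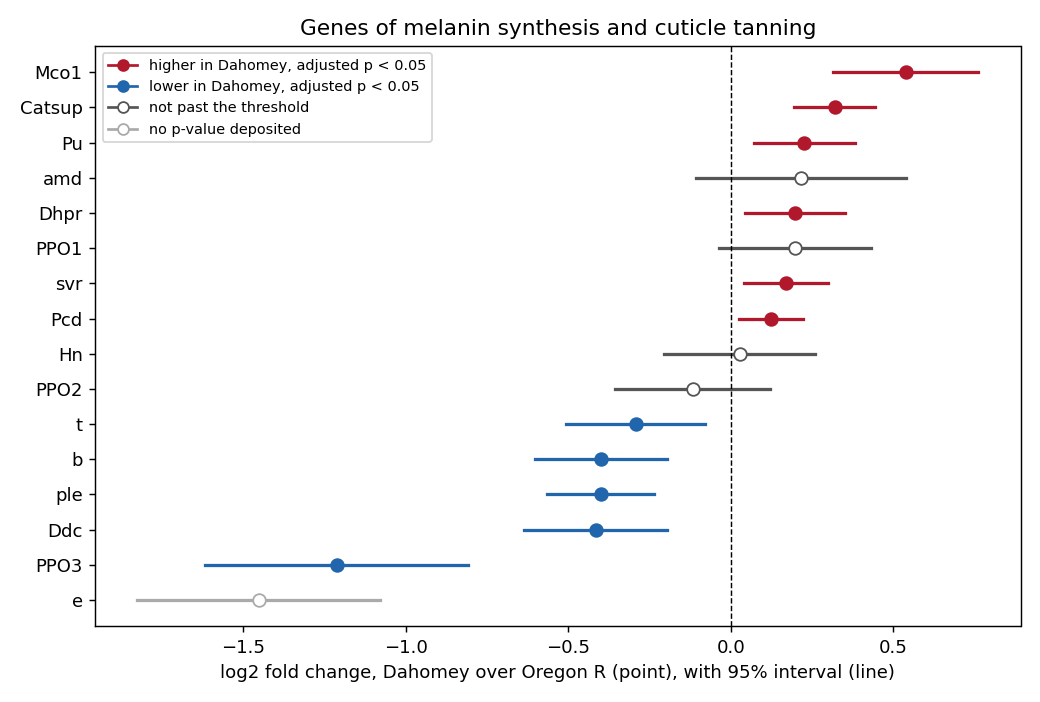
Log2 fold change, Dahomey over Oregon R (x axis), with its 95% interval for the 16 matched genes of melanin synthesis and cuticle tanning, in order of fold change. The filled points above 0 are 6 genes with Mco1 highest at 0.54, the filled points below 0 are 5 genes with PPO3 lowest at -1.21, and e, without a p-value, stands at -1.45.

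Markers of head and thorax were abundant, and so were some markers of midgut and fat body. Marker means were 23052 to 1452797 for photoreceptors, 14362 to 252776 for flight muscle and 1765 to 41449 for neurons in the authors' deposited table. Means there were 8659 to 311764 for midgut and 11.4 to 2092636 for fat body, the highest being that of Yp1. Of 8 genes of epidermis and cuticle, the tissue in which y is known to act, 7 had a p-value, with 2 higher in Dahomey, 3 lower and 2 that did not pass, beside the 29.4% of all entries that passed. The cuticle gene TwdlT had 2.25 ± 0.22 and Cpr47Ea had -1.57 ± 0.22 in the authors' deposited table. Of 7 blood cell markers, 1 was higher, 2 were lower and 4 did not pass. Of 6 photoreceptor markers, 1 was higher in Dahomey, 3 were lower and 2 did not pass. Of 5 flight muscle markers with a p-value, 2 were higher and 2 were lower, and of 4 neuron markers 1 was lower. Of 6 fat body markers 3 had a p-value, and 2 of these were higher in Dahomey: the yolk protein gene Yp1, at 0.52 ± 0.16, and apolpp, a lipoprotein gene, at 0.39 ± 0.11 in the authors' deposited table. Lsp2, a storage protein gene of the fat body, had -1.91 ± 0.39 and no p-value there. Of 4 midgut markers 2 had a p-value: betaTry was higher in Dahomey, with 0.81 ± 0.066, and alphaTry, with 0.05 ± 0.072, did not pass. Without a p-value, Jon25Biii had -0.89 ± 0.32 and Jon65Aiv had 0.68 ± 0.31 in the authors' deposited table. The part of any of these tissues in the values of yellow-d and yellow-e was not tested.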

How the data were processed

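RNA of heads and thoraxes was sequenced from 8 libraries, 4 of Dahomey and 4 of Oregon R, as poly(A)-selected libraries per the labels' protocols, with a stated 90000000 reads per sample per the series' design text. The submitters' processing notes name genome build BDGP5 and the tools bcl2fastq, FastQC, TopHat2 2.0.7 and DESeq2. Which program counted reads, how it treated strand and which annotation it used was not stated in the notes or labels. Per the file headers, the deposited columns hold a mean signal in normalized counts, a log2 fold change with its SE, and raw and adjusted p-values, all made by the authors. The deposited p-value differed by at most 4.05e-15 from a 2-sided Wald p made from fold change and SE. SE never exceeded 0.42, and fold changes of low genes may be understated.

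The table had 14944 rows, 13395 of them with a p-value. Of the rest, 633 had a mean of 0, and 916 had a fold change without a p-value. The gene e, with a mean of 5728, is among the latter, so a missing p-value does not mark a low mean alone. The columns used give no reason for it. Of 14701 gene IDs, 14367 matched a symbol; speck (listed as AANAT1), stw and dec-1 matched no row. Where an ID stood on several rows, that of the highest mean was kept. The 95% intervals are normal intervals from the authors' SE. Means implied per strain assume that the deposited mean weights the strains equally. Exon lengths, overlaps, protein lengths and gene order came from the BDGP6 annotation (Ensembl release 115), looked up by ID. That build is not the authors' one, so coordinates are left out. Members, lists and tests were chosen with earlier results of these data known. The genes named are the members, the other Yellow genes, their nearest neighbours by gene start and genes whose exons overlap theirs. All tanning and pigment-regulator genes that passed and the 4 tanning genes that did not are also named. The regulators bab1, bab2 and Abd-B, which did not pass, were named outside this rule. Marker genes named singly and e were chosen after their values were seen. A count model was planned in case counts per library were at hand; the finished comparison took its place. The call rule and the adjustment were tested on simulated data. Alternatives were other thresholds, adjustments, filters, row choices and a shift of the scale. Python 3.11.15 with numpy 2.4.6, pandas 2.3.3, scipy 1.17.1 and matplotlib 3.10.9 was used.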

Additional observations from a re-analysis of the deposited data

How the results depend on the processing

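The calls of yellow-d and yellow-e and the absence of a call for the other 8 members held under each alternative in which they could be computed: an adjusted p under 0.01 or 0.1, a mean of at least 10 or 100, Benjamini-Hochberg adjustment over 1 row per gene ID, Bonferroni adjustment, an absolute log2 fold change of at least 0.5, the lowest-mean row kept, and fold changes shifted by the median of entries with a mean of at least 100 (-0.01). Under the minimum means, yellow-e2 and yellow-e3, or also y, had no value. No member stood on several rows, so keeping the lowest-mean row could not change the members' values. The adjusted p under 0.01, the Bonferroni adjustment and the minimum fold change can only remove calls, so they could not have produced one for the other 8 members. The log2 fold changes of yellow-d and yellow-e, 0.90 and -0.68, exceed the minimum of 0.5 in size, so that minimum could not remove their calls. The share of all entries that passed fell from 29.4% to 22.6% with an adjusted p under 0.01, 12.0% with Bonferroni adjustment and 11.9% with the minimum fold change. Of the tanning genes, 2 were higher in Dahomey and 4 were lower with an adjusted p under 0.01, 2 higher and 2 lower with Bonferroni adjustment, and 1 higher and 1 lower with the minimum fold change. The order of the members by level was the same with protein length in place of exon length. No paired analysis was possible because the table gives no values per library, and for the same reason libraries were not left out and other count tools were not run. The depth of each library is unknown, and the SE limits what could be seen for y, yellow-e2 and yellow-e3.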

Other observations

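Transcription factors known from work on pigment genes in the fly mostly gave no call. Of 14 listed regulators, 12 did not pass, 1 was higher in Dahomey and 1 was higher in Oregon R at the authors' DESeq2 adjusted p of 0.05, against 29.4% of all entries that passed in either direction. The lowest mean of the 14 was 138, and of all entries with a mean of at least 100, 36.8% passed. The gene crol, a zinc-finger factor of ecdysone response, had a log2 fold change of 0.21 ± 0.059 (SE; DESeq2 adjusted p = 0.00206) in the authors' deposited table. Hr38, a nuclear receptor with a part in cuticle formation, had -0.47 ± 0.14 (SE; DESeq2 adjusted p = 0.00490) there. The bric-a-brac genes bab1 and bab2, repressors of abdominal pigment, had -0.07 ± 0.095 and -0.06 ± 0.065 in the authors' deposited table. Abd-B, which sets the identity of the posterior abdomen, had a mean of 138 and a log2 fold change of 0.19 ± 0.19 in the authors' deposited table. The labels give heads and thoraxes as the material, and eggshell transcripts were present in it.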
